A study of Homo sapiens with 9 samples.

Results

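Collagen becomes a load-bearing fibre only after its lysines and prolines have been modified, and 10 genes for the enzymes that do this are described here in A549 cells treated with inhibitors of protein arginine methyltransferases (PRMTs). The genes are LOX and LOXL1 to LOXL4 (lysyl oxidases), P4HA1 and P4HA2 (catalytic alpha subunits of collagen prolyl 4-hydroxylase), and PLOD1, PLOD2 and PLOD3 (lysyl hydroxylases). They were matched by symbol, each to 1 identifier, among 51796 genes of the deposited count table, and all 10 were among the 18292 genes with enough counts to be tested.

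Prolyl 4-hydroxylases act in the endoplasmic reticulum and make the hydroxyproline that keeps the collagen triple helix stable at body temperature. Lysyl hydroxylases act there too, on lysines that later carry sugars or take part in crosslinks. Outside the cell, the copper-dependent lysyl oxidases turn lysine and hydroxylysine side chains into aldehydes, from which crosslinks of collagen and elastin form. The hydroxylases use iron, 2-oxoglutarate, oxygen and ascorbate, and several of these genes are known targets of hypoxia-inducible factors. In lung, the enzymes are known from fibrosis and from stiff tumour matrix.

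A549 cells are epithelial and were derived from an adenocarcinoma of the human lung. The study had 3 groups of 3 libraries each after 7 days, namely DMSO (solvent), GSK591 at 1 µM, which inhibits PRMT5, and MS023 at 1 µM, which inhibits the type I PRMTs. Control plates were seeded at 0.2 and the plates of both inhibitors at 0.4 of the same unit of cells, so in each comparison with DMSO the seeding and the treatment cannot be told apart. Nothing in the labels ties the replicates of a group to separate cultures, and the p-values therefore cover the spread of these libraries alone, which may be technical.

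Libraries held 31398075 to 51244525 counts. The libraries were depleted of rRNA. Mitochondrial rRNA was at 933 CPM in GSK591 replicate 3, against 0.410 to 20.7 CPM in the other 8 libraries. CPM here are counts scaled to the library's total after TMM adjustment of that total. The summed level of 7 epithelial markers was 4880 to 5010 CPM in DMSO, 6240 to 6440 in GSK591 and 3960 to 4160 in MS023, without overlap. Most of it was KRT8 (means of 2980, 4080 and 2580 CPM) and KRT18 (1800, 1950 and 1290). KRT19 averaged 52.1, 163 and 56.2 CPM, and EPCAM 13.5, 6.43 and 21.0. Of the 5 that could be tested, 3 rose and 1 fell in GSK591, and 1 rose and 3 fell in MS023. The lung lineage markers NKX2-1 and SFTPC had 29 and 42 counts over all 9 libraries. Of 9 fibroblast markers, DCN and COL1A2 had 1 and 2 counts in all. The summed level of the fibroblast markers was 21.3 to 23.7 CPM in DMSO, 27.2 to 28.5 in GSK591 and 33.2 to 37.2 in MS023, and of the 5 that could be tested 3 rose and 2 fell in GSK591 while 1 rose and 1 fell in MS023. Endothelial markers summed to at most 0.682 CPM, and leukocyte markers to 6.39 to 9.07 CPM, nearly all of it CD14. The part of these markers in the results below was not tested. In bulk RNA, fewer cells of a kind and less RNA per cell cannot be told apart.

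Upstream sequence was looked at first, since hypoxia-inducible factors bind the core letters ACGTG or GCGTG. RefSeq windows (GRCh38.p14) of 250 bases before an annotated start were examined for 9 of the 10 genes, 12 windows in all. LOXL2 was not among the 9, so its upstream sequence was not tested for these letters. These letters, on either strand, occurred in 43.2% of 35116 such windows of all genes, and in 7 of the 12 windows, which belonged to 5 of the 9 genes. The 7 are not all separate, since the LOX windows that begin at 122077224 and 122077175 overlap and hold the same matches. The first window of LOX held 4 matches, that of PLOD2 held 3, that of PLOD1 held 2 and that of P4HA1 held 1. A further LOXL3 window held 1, and P4HA2, PLOD3, LOXL1 and LOXL4 had none. The AP-1 motif TGACTCA, whose reverse complement is TGAGTCA, was in none of the 12 windows and in 4.2% of all. Windows are shown for the 4 genes with matches at their first start. Of these, LOX, PLOD2 and P4HA1 changed under both inhibitors. So did LOXL1 and PLOD3, which had no match, and LOXL2, for which no window is described. A link between matches and changes was not tested. The strand shown is that of the gene, 5′ to 3′, ending at the base before the start, and capitals mark these letters or their reverse complements.
LOX (chromosome 5, 122078260 to 122078509, minus strand): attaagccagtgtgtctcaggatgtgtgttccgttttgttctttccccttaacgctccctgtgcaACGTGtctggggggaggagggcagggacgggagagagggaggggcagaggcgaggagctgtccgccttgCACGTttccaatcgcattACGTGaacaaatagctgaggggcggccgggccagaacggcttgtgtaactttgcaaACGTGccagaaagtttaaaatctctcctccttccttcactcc
PLOD2 (chromosome 3, 146161185 to 146161434, minus strand): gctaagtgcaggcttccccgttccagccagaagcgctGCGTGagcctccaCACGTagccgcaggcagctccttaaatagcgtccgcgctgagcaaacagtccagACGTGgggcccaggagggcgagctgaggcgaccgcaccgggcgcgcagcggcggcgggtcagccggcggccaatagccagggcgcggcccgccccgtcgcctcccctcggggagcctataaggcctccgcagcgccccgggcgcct
PLOD1 (chromosome 1, 11934467 to 11934716, plus strand): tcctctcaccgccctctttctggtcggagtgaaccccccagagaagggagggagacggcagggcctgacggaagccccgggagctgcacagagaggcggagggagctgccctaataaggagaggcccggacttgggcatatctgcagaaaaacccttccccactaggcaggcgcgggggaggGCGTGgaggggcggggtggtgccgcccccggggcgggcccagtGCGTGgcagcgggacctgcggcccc
P4HA1 (chromosome 10, 73096867 to 73097116, minus strand): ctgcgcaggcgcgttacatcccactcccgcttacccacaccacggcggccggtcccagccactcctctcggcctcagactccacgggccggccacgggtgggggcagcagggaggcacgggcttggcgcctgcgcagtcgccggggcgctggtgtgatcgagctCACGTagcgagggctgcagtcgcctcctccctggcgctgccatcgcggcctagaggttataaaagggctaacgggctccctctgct
A match of so few letters is a description of the sequence and not a binding site.

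On the FPKM scale, which corrects for gene length and so allows levels of different genes to be set side by side, the control cells made mostly PLOD2 and very little of any lysyl oxidase other than LOXL2. PLOD2 averaged 85.6 FPKM in DMSO, above every other enzyme in every control library. PLOD1 (34.7) and P4HA1 (31.5) followed and overlapped between libraries, and below them stood LOXL2 (22.4), P4HA2 (19.4) and PLOD3 (12.9), each above the next in every library. LOXL4 (0.568), LOX (0.363), LOXL3 (0.317) and LOXL1 (0.176) were all under 1 FPKM, and the last 3 overlapped. In GSK591, LOXL2 moved up to the second place at 34.3 FPKM and P4HA1 down to the fifth at 14.8 FPKM, where it overlapped PLOD3 (13.6). In MS023, LOXL2 dropped to the sixth place at 7.59 FPKM. PLOD2 stayed first in both, at 102 FPKM in GSK591 and 56.1 FPKM in MS023.

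Between treatments, the level in each library is given below as CPM after TMM scaling, in the order of the replicate numbers. Each change is a log2 value from the model with its standard error (±), and its p comes from edgeR's quasi-likelihood test with Benjamini-Hochberg adjustment over all 18292 genes. A gene is said to rise or fall where this adjusted p was under 0.05.

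With GSK591, 6 of the 10 enzymes rose against DMSO and 3 fell. Many genes differed between these groups, with 30.1% of all tested genes higher and 32.4% lower, so 9 called of 10 stands beside 62.6% of all genes. All 5 lysyl oxidases were among the enzymes that rose, together with PLOD2, and those that fell were P4HA1, PLOD1 and PLOD3. The median log2 change over the 10 enzymes was 0.32, against 0.01 over all genes tested. In 9 of the 10 the libraries of the groups did not overlap, as for 65.6% of all genes. Tested against a log2 change of 0.5 instead of 0, LOXL1, LOXL2, LOXL4, P4HA1 and PLOD1 were still called. The share of all genes called in that test is not given here, so these calls cannot be set beside it.

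With MS023, 1 enzyme rose and 6 fell. Here 25.1% of all genes were higher and 25.9% lower, or 51% together. LOXL1 was the enzyme that rose. Those that fell were LOX, LOXL2, P4HA1, P4HA2, PLOD2 and PLOD3. The median over the 10 was -0.25, against -0.00 over all genes, and the groups did not overlap in 8, as for 57.5% of all genes. Against a log2 change of 0.5, LOXL1 and LOXL2 were still called, again without a share of all genes to set beside them. Both comparisons use the same DMSO libraries.

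Set directly against each other, at the same dose, time and seeding, MS023 had 7 of the 10 enzymes lower than GSK591 and 2 higher, P4HA1 and PLOD1, while LOXL1 did not pass. Among all genes 31.7% were lower and 33.6% higher, 65.4% together. The median over the 10 was -0.36, against 0.00 over all genes. In 9 of the 10 the groups did not overlap, as for 70.5% of all genes. Against a log2 change of 0.5, LOX, LOXL2, LOXL4 and PLOD2 were still called, here too without a share of all genes to set beside them.

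**Figure D1:**
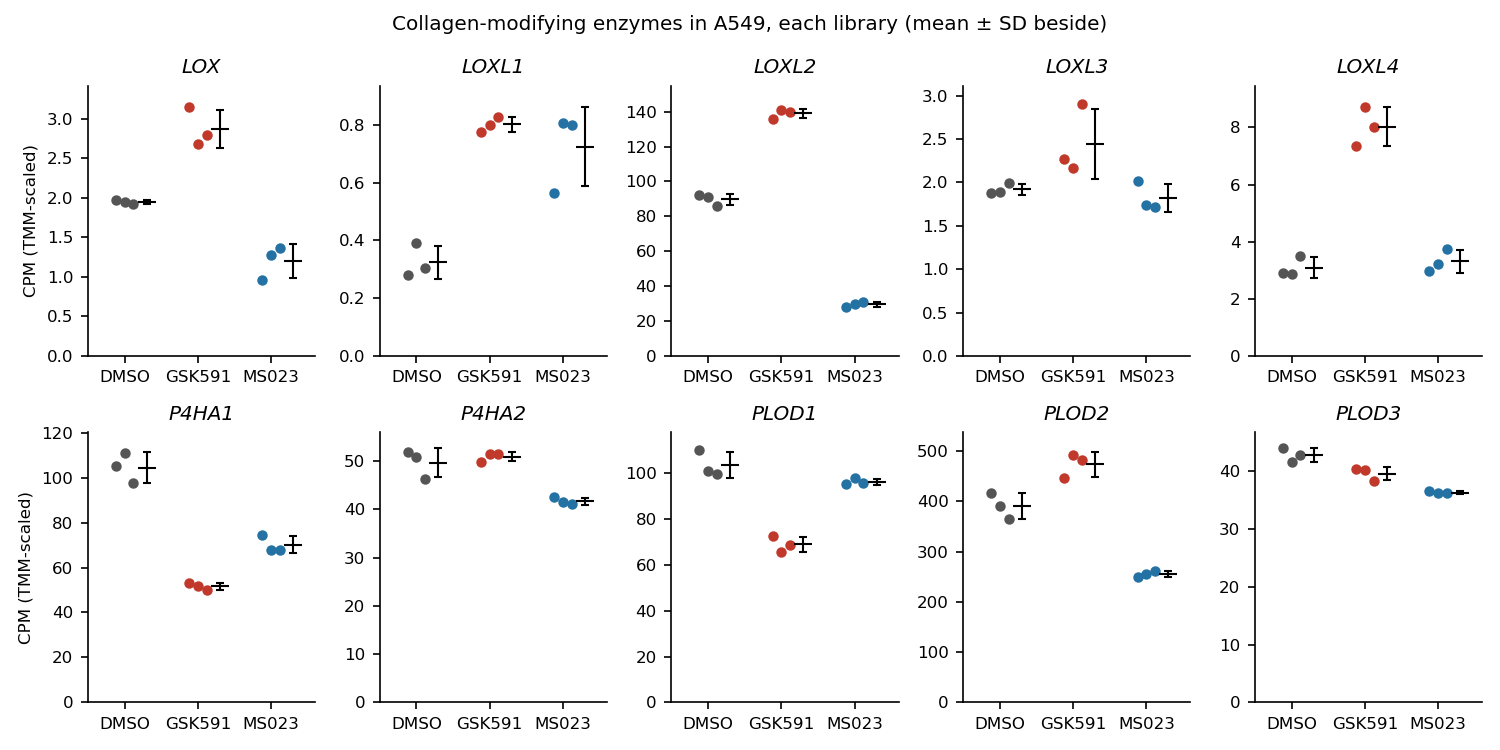
Level of each enzyme in CPM (TMM-scaled, each axis from 0) in the 9 libraries, with the mean ± SD of the 3 libraries of a group drawn to the right of its points. LOXL2 and PLOD2 lie above the control libraries in GSK591 and below them in MS023, and P4HA1 lies below them in both.

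LOXL2, a secreted oxidase with scavenger receptor domains that crosslinks collagen IV among others, was the lysyl oxidase that these cells chiefly made (hg19 chromosome 8, 23154702 to 23282841). Its DMSO libraries stood at 92.3, 90.9 and 85.9 CPM. The GSK591 libraries stood at 136, 141 and 140 CPM, and the MS023 libraries at 28.1, 29.8 and 31.0 CPM. No library of any group came near those of another. LOXL2 thus rose 1.55-fold in GSK591 (log2 0.64 ± 0.04, adjusted p = 4.32e-09) and was 3.03-fold lower in MS023 (log2 -1.60 ± 0.04, adjusted p = 7.62e-13). The distance between the inhibitors was 4.71-fold, lower in MS023 (log2 -2.23 ± 0.04, adjusted p = 1.22e-14). In MS023 the size of this change exceeded that of 96.9% of all genes tested, and in GSK591 that of 74.6%. The LOXL2 locus overlaps that of ENTPD4 (2431 to 5064 counts per library) by 39546 bases, and the strand setting of the counting is not given in the sources used here. The FPKM of the same libraries were 22.8, 22.4 and 21.9 in DMSO, 33.6, 36.3 and 33.1 in GSK591, and 7.09, 7.87 and 7.80 in MS023.

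LOX, the founding member of the family, which crosslinks fibrillar collagen and elastin, moved in the same directions at a much lower level (hg19 chromosome 5, 121398890 to 121413980). It had 63, 90 and 89 counts in DMSO (1.97, 1.95 and 1.92 CPM) and 101, 114 and 128 in GSK591 (3.14, 2.68 and 2.79 CPM). In MS023 it had 49, 49 and 58 counts (0.956, 1.28 and 1.36 CPM). The groups did not overlap in CPM. LOX rose 1.47-fold in GSK591 (log2 0.55 ± 0.14, adjusted p = 0.00376) and was 1.64-fold lower in MS023 (log2 -0.71 ± 0.16, adjusted p = 0.00183). MS023 lay 2.40-fold below GSK591 (log2 -1.27 ± 0.15, adjusted p = 3.76e-06). In FPKM the DMSO values of 0.492, 0.291 and 0.304 overlapped those of GSK591, 0.478, 0.394 and 0.531. On log2(FPKM + 1) without a filter neither change against DMSO was called (limma, log2 0.11 and -0.21, adjusted p = 0.297 and 0.0706). Adding 1 understates the changes of genes this low, so a missing call there decides little. The LOX locus overlaps that of SRFBP1, which had 1040 to 1807 counts per library.

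LOXL4, a further oxidase with scavenger receptor domains, rose in GSK591 (hg19 chromosome 10, 100007447 to 100028007). It stood at 2.91, 2.86 and 3.50 CPM in DMSO, at 7.36, 8.70 and 8.02 CPM in GSK591 and at 2.97, 3.20 and 3.76 CPM in MS023. The GSK591 libraries lay far above the other 6, which overlapped. The rise was 2.59-fold (log2 1.37 ± 0.11, adjusted p = 7.32e-08), larger than the change of 93.8% of all genes. In MS023 the log2 difference from DMSO was 0.09 ± 0.12 (95% interval -0.18 to 0.35, adjusted p = 0.582), and MS023 was 2.44-fold lower than GSK591 (log2 -1.29 ± 0.11, adjusted p = 9.39e-08). On log2(FPKM + 1), which understates the changes of low genes, the values for GSK591 against DMSO and for MS023 against GSK591 were 0.71 and -0.63, both still called, and with a pseudocount of 0.1 they were 1.32 and -1.15.

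LOXL1, which is known for its role in elastic fibres, rose under both inhibitors from very few counts (hg19 chromosome 15, 74218330 to 74244478). It had 9, 18 and 14 counts in DMSO, 25, 34 and 38 in GSK591, and 29, 31 and 34 in MS023. That made 0.281, 0.390 and 0.303 CPM in DMSO, 0.777, 0.800 and 0.829 CPM in GSK591, and 0.566, 0.807 and 0.799 CPM in MS023. In CPM every treated library lay above every control, and the treated groups overlapped each other. The rise was 2.43-fold in GSK591 (log2 1.28 ± 0.26, adjusted p = 0.00052) and 2.17-fold in MS023 (log2 1.12 ± 0.26, adjusted p = 0.00227). Between the inhibitors the log2 difference was -0.17 ± 0.22 (95% interval -0.64 to 0.31, adjusted p = 0.530). In FPKM the DMSO libraries, at 0.251, 0.245 and 0.0334, overlapped those of GSK591 at 0.426, 0.176 and 0.459, and lay below those of MS023 at 0.313, 0.758 and 0.352. Neither rise was called on log2(FPKM + 1) without a filter (limma, log2 0.20 and 0.32, adjusted p = 0.388 and 0.194). Adding 1 understates the changes of genes this low, so a missing call there decides little. The antisense gene LOXL1-AS1 overlaps LOXL1 by 2260 bases.

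LOXL3 was the least certain of the family (hg19 chromosome 2, 74759541 to 74782817). Its CPM were 1.88, 1.89 and 1.99 in DMSO, 2.27, 2.16 and 2.90 in GSK591, and 2.01, 1.74 and 1.72 in MS023. GSK591 replicate 3 was the highest library, and the DMSO and MS023 libraries overlapped. The rise in GSK591 (log2 0.36 ± 0.15, adjusted p = 0.0486) was no longer called after leaving out DMSO replicate 1 (adjusted p = 0.0783), DMSO replicate 2 (0.0892), DMSO replicate 3 (0.0734) or GSK591 replicate 3 (0.227), in DESeq2 (0.0854), without a filter on low counts (0.0865), in a fit of the 6 libraries alone (0.0599) and with the replicate block (0.0625). The alternatives gave adjusted p-values between 0.0219 and 1. The difference between the inhibitors (log2 -0.42 ± 0.15, adjusted p = 0.0203) likewise ended without GSK591 replicate 3 (adjusted p = 0.131), MS023 replicate 2 (0.0578) or MS023 replicate 3 (0.0653), in a range of 0.0106 to 0.995. In MS023 against DMSO the log2 difference was -0.07 ± 0.15 (95% interval -0.39 to 0.26, adjusted p = 0.737). LOXL3 shares its locus with DOK1 and HTRA2, whose counts per library were 246 to 381 and 329 to 660.

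**Figure D2:**
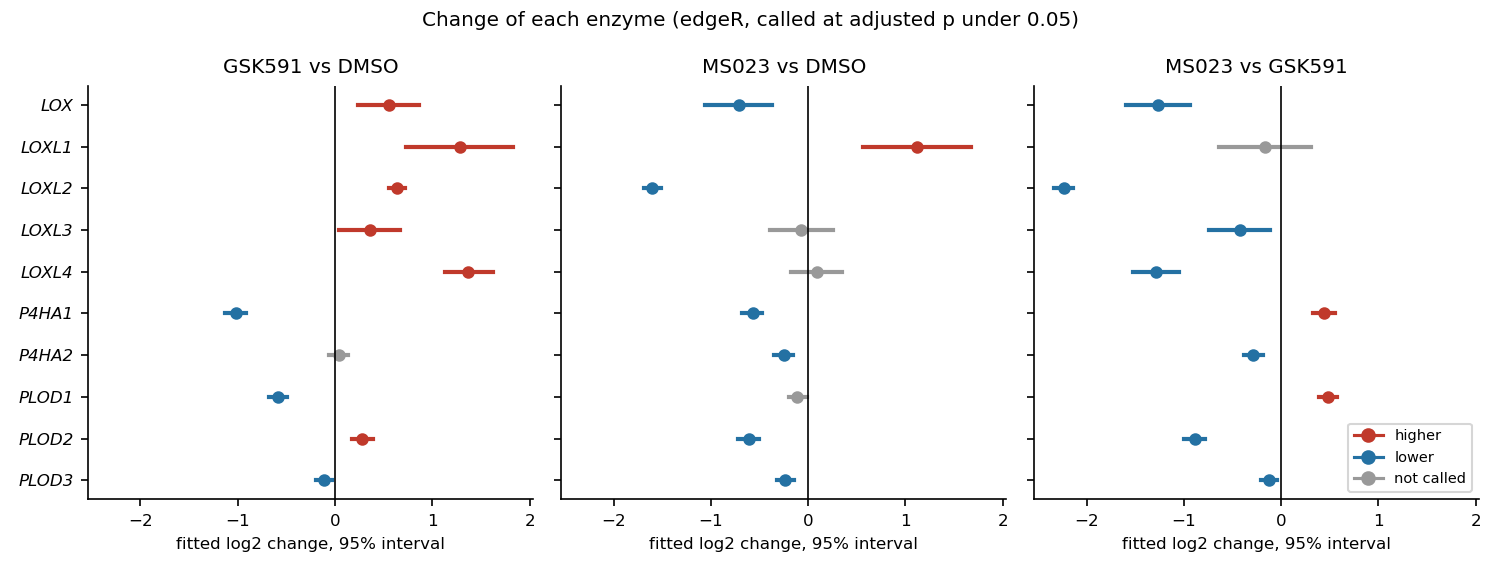
Fitted log2 change of each enzyme in the 3 comparisons, the point with its 95% interval, red where called higher and blue where called lower at an adjusted p under 0.05. The 5 lysyl oxidases lie right of 0 in GSK591 against DMSO, and LOXL2 has the largest decrease of the 10 in both panels of MS023.

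P4HA1, the alpha subunit of the main prolyl 4-hydroxylase of most cells, fell under both inhibitors and more under GSK591 (hg19 chromosome 10, 74766975 to 74856732). The DMSO libraries stood at 105, 111 and 97.4 CPM. They were 53.1, 51.8 and 50 CPM in GSK591 and 74.5, 67.9 and 67.9 CPM in MS023. All 3 groups were separate, with MS023 between the other two. P4HA1 was 2.02-fold lower in GSK591 (log2 -1.02 ± 0.05, adjusted p = 3.53e-10) and 1.49-fold lower in MS023 (log2 -0.57 ± 0.05, adjusted p = 3.03e-07), and MS023 exceeded GSK591 1.36-fold (log2 0.44 ± 0.05, adjusted p = 2.16e-06).

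P4HA2, the alpha subunit of a second form of the enzyme, behaved differently (hg19 chromosome 5, 131527531 to 131631008). It stood at 52.0, 50.8 and 46.3 CPM in DMSO, at 49.8, 51.4 and 51.5 CPM in GSK591 and at 42.5, 41.5 and 41.1 CPM in MS023. GSK591 overlapped the controls, with a log2 difference of 0.04 ± 0.04 (95% interval -0.06 to 0.13, adjusted p = 0.482), and the MS023 libraries lay below both other groups. The decrease in MS023 was 1.19-fold (log2 -0.25 ± 0.04, adjusted p = 0.000241). MS023 lay 1.22-fold below GSK591 (log2 -0.29 ± 0.04, adjusted p = 3.82e-05).

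On the FPKM scale, P4HA2 was the larger part of the pair in GSK591 and the smaller in the other groups. In CPM, which is not per length, the means of P4HA1 and P4HA2 in GSK591 were 51.6 and 50.9. P4HA2 held 38.7, 37.4 and 38.2% of the summed FPKM of the pair in DMSO, 54.4, 56.6 and 57.4% in GSK591, and 43.0, 43.7 and 43.1% in MS023. This order held in FPKM in each of the 9 libraries, and the 3 groups did not overlap. The log2 ratio of P4HA2 to P4HA1 was -0.701 ± 0.0392 in DMSO, 0.354 ± 0.0894 in GSK591 and -0.390 ± 0.0208 in MS023 (SD, n = 3). Each pair of groups gave p = 0.1 in a two-sided exact permutation test, the smallest p that 3 against 3 libraries allow. The summed FPKM of the pair was 50.8 ± 3.56 in DMSO, 33.6 ± 1.5 in GSK591 and 37.2 ± 2.86 in MS023, lower than in every control in both treated groups. P4HA3, the third alpha subunit, is not part of these shares and sums and is given further below.

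PLOD2, the lysyl hydroxylase that acts on the end regions of collagen (telopeptides) and so sets the kind of crosslink formed, was the most abundant enzyme (hg19 chromosome 3, 145787227 to 145881440). It stood at 417, 391 and 364 CPM in DMSO. The GSK591 libraries had 446, 493 and 483 CPM and the MS023 libraries 250, 256 and 262 CPM. As with LOXL2, GSK591 lay above and MS023 below all controls. PLOD2 rose 1.21-fold in GSK591 (log2 0.28 ± 0.05, adjusted p = 0.000241) and was 1.53-fold lower in MS023 (log2 -0.61 ± 0.05, adjusted p = 1.99e-07). MS023 lay 1.85-fold below GSK591 (log2 -0.89 ± 0.05, adjusted p = 1.11e-09).

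PLOD1, which hydroxylates lysines of the triple helix, fell in GSK591 (hg19 chromosome 1, 11994262 to 12035595). It stood at 110, 101 and 99.9 CPM in DMSO, at 72.5, 65.8 and 68.8 CPM in GSK591 and at 95.2, 97.8 and 95.9 CPM in MS023. The GSK591 libraries were the lowest by a wide margin, and the MS023 libraries lay just under the controls. The decrease in GSK591 was 1.5-fold (log2 -0.59 ± 0.04, adjusted p = 2.59e-08). In MS023 the log2 difference of -0.11 ± 0.04 did not pass (95% interval -0.20 to -0.01, adjusted p = 0.0518). Leaving out DMSO replicate 3 brought it past the threshold (log2 -0.14, adjusted p = 0.0383), and the highest value among the alternatives was 1. MS023 exceeded GSK591 1.40-fold (log2 0.48 ± 0.04, adjusted p = 1.73e-07).

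PLOD3, which also carries glycosyltransferase activity, changed little (hg19 chromosome 7, 100849258 to 100861701). Its CPM were 44.0, 41.5 and 42.8 in DMSO, 40.3, 40.1 and 38.2 in GSK591, and 36.5, 36.1 and 36.1 in MS023. The groups were separate but close together. It fell by 0.24 ± 0.04 on the log2 scale in MS023 (adjusted p = 0.00014), a call that ended in FPKM without a filter (limma adjusted p = 0.0917), and lay below GSK591 (log2 -0.13 ± 0.04, adjusted p = 0.0113), which was not called without a filter on low counts (0.107). The smaller change in GSK591 (log2 -0.11 ± 0.04, adjusted p = 0.0206) did not pass when DMSO replicate 1 (adjusted p = 0.139) or GSK591 replicate 3 (0.192) was left out. Total-count scaling (0.324), a 1 CPM filter (0.137) and DESeq2 (0.0768) ended it too, in a range of 0.0206 to 1. In FPKM, where the libraries were at 12.2, 13.2 and 13.4 in DMSO and 13.4, 14.7 and 12.5 in GSK591, its sign was opposite. The PLOD3 locus overlaps that of ZNHIT1 (1038 to 1879 counts per library) by 753 bases.

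Within the lysyl hydroxylases, the share of PLOD2 in the summed FPKM was 64.5, 66.3 and 61.8% in DMSO, 71.7, 75.0 and 75.0% in GSK591, and 55.8, 56.1 and 57.0% in MS023. The groups did not overlap, with differences from DMSO of 9.72 percentage points in GSK591 and -7.90 in MS023 (exact permutation p = 0.1 for each, the smallest possible). The share of PLOD1 went the other way, at 26.1 ± 1.83% in DMSO, 16.3 ± 1.80% in GSK591 and 32.6 ± 0.653% in MS023. Shares within a family depend on each other, and PLOD1 itself averaged 34.7, 22.4 and 32.5 FPKM in these groups. The summed FPKM of the 3 genes was 133 ± 4.77 in DMSO, 138 ± 4.93 in GSK591, which overlapped DMSO, and 99.7 ± 1.63 in MS023.

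Among the lysyl oxidases LOXL2 held 94.0 ± 1.00% of the summed FPKM in DMSO and 92.7 ± 0.627% in GSK591, which overlapped (exact permutation p = 0.2). In MS023 its share was 82.3 ± 1.90%, below every other library (exact permutation p = 0.1 against each of the other groups). The summed FPKM of the family was 23.8 ± 0.686 in DMSO, 37.1 ± 1.64 in GSK591 and 9.23 ± 0.698 in MS023, with no overlap. LOXL4 had the next highest mean share, at 2.39 ± 0.340% in DMSO, 4.20 ± 0.110% in GSK591 and 7.03 ± 0.601% in MS023, and in MS023 replicate 2 it was below LOXL1 (6.69 against 7.72%). Its share in MS023 went with the lower LOXL2, since LOXL4 itself averaged 0.568 FPKM in DMSO, 1.56 in GSK591 and 0.649 in MS023.

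**Figure D3:**
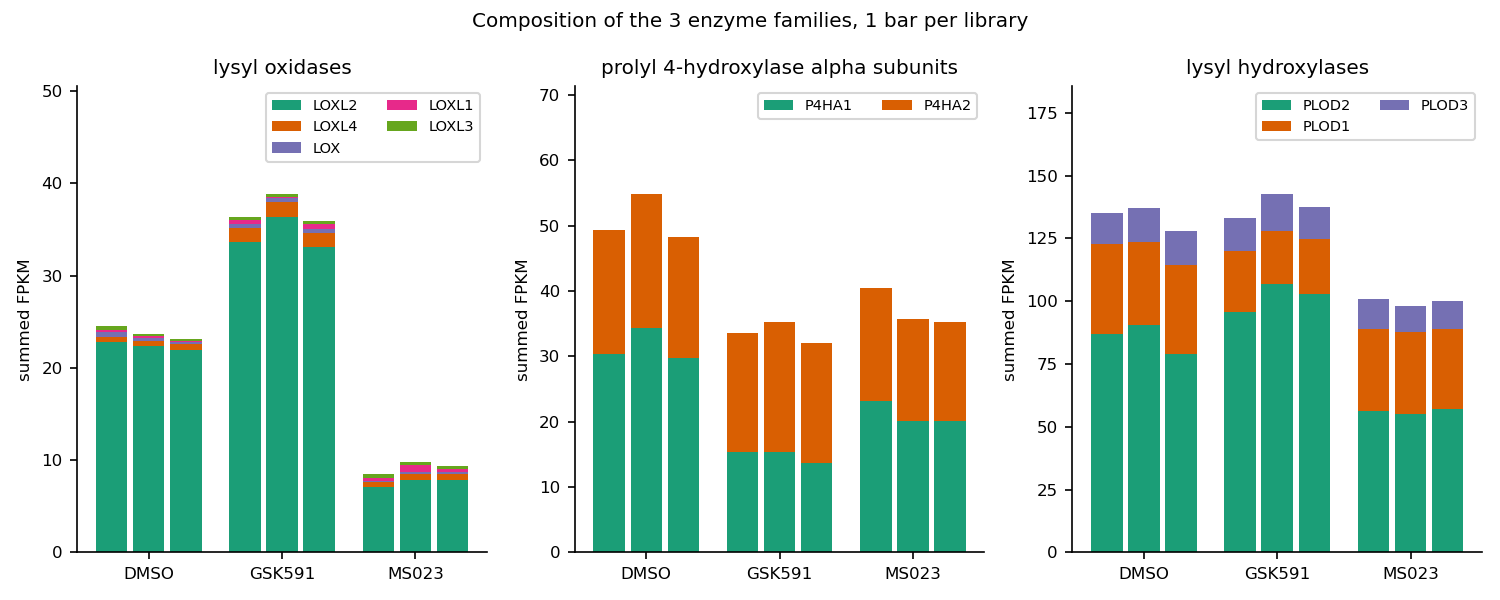
Summed FPKM of the lysyl oxidases, P4HA1 and P4HA2, and the lysyl hydroxylases, 1 stacked bar for each of the 9 libraries. The third prolyl 4-hydroxylase alpha subunit, P4HA3, is not included. The lysyl oxidase bars are nearly all LOXL2, at a mean sum of 37.1 FPKM in GSK591 and 9.23 FPKM in MS023, and P4HA2 is the larger part of its pair in the GSK591 libraries.

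The genes around these enzymes were taken from fixed lists. Of 16 other genes for collagen hydroxylation, glycosylation and folding in the endoplasmic reticulum, 3 rose and 11 fell in GSK591 (median log2 -0.23), and 6 rose and 6 fell in MS023 (median 0.05). SERPINH1, the collagen chaperone HSP47, rose in both, from 58.9 CPM in DMSO to 92.1 in GSK591 (log2 0.65 ± 0.06, adjusted p = 5.59e-07) and 72.2 in MS023 (0.30 ± 0.06, adjusted p = 0.00137). P4HA3, the third alpha subunit of the prolyl 4-hydroxylases, fell in both, from 31.9 CPM to 21.3 in GSK591 (log2 -0.58 ± 0.05, adjusted p = 9.63e-08) and 7.85 in MS023 (-2.02 ± 0.05, adjusted p = 7.77e-13). In GSK591 the prolyl 3-hydroxylase P3H2 rose (0.20 ± 0.04) and FKBP10, a chaperone of collagen and of PLOD2, fell (-0.49 ± 0.03). In MS023 the prolyl 3-hydroxylase P3H1 rose (0.35 ± 0.05) and FKBP7 fell (-0.41 ± 0.08). Conversely, P3H2 fell (-0.10 ± 0.04) and FKBP10 rose (0.14 ± 0.03) in MS023, while P3H1 (-0.37 ± 0.05) and FKBP7 (-0.28 ± 0.08) fell in GSK591.

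Of 14 tested genes for procollagen export and processing, 3 rose and 5 fell in GSK591 (median 0.00), and 1 rose and 3 fell in MS023 (median -0.01). BMP1, the proteinase that removes the propeptide of LOX and of procollagens, rose from 50.8 to 83.6 CPM in GSK591 (log2 0.72 ± 0.04, adjusted p = 2.92e-09). It fell to 33.1 CPM in MS023 (log2 -0.62 ± 0.04, adjusted p = 3.80e-08). PCOLCE2, an enhancer of that cleavage, rose slightly in GSK591 (0.17 ± 0.06) and fell from 23.9 to 10.1 CPM in MS023 (-1.24 ± 0.07, adjusted p = 1.91e-09). FURIN, a convertase of many proproteins, fell in GSK591 (-0.45 ± 0.06) and rose in MS023 (0.50 ± 0.06). The coat protein gene SEC23A fell in GSK591 (-0.43 ± 0.04) and in MS023 (-0.25 ± 0.04).

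Of 13 tested partners of the lysyl oxidases and genes of copper supply, 6 rose and 2 fell in GSK591 (median 0.15), and 4 rose and 4 fell in MS023 (median 0.02). FBN1, which codes for the microfibril protein fibrillin-1, rose from 13.9 to 66.6 CPM in GSK591 (log2 2.26 ± 0.09, adjusted p = 4.47e-11) and fell to 11.1 CPM in MS023 (-0.33 ± 0.10, adjusted p = 0.0115). EFEMP2, whose product fibulin-4 brings LOX to elastin, rose in GSK591 (0.93 ± 0.17), while FBLN5 (-0.50 ± 0.12) and LTBP1 (-0.48 ± 0.04) fell. In MS023 TNXB, which codes for tenascin-X, rose from 2.46 to 10.9 CPM (2.14 ± 0.09), THBS1 rose (0.69 ± 0.04) and LTBP1 fell (-0.30 ± 0.04). TNXB (0.82 ± 0.10) and THBS1 (0.22 ± 0.04) rose in GSK591 too, while EFEMP2 and FBLN5 were not called in MS023.

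Of 18 other genes known to be induced in hypoxia, 3 rose and 13 fell in GSK591 (median -0.42), and 2 rose and 12 fell in MS023 (median -0.34). The carbonic anhydrase CA9 fell in both, from 6.48 CPM to 2.42 in GSK591 (log2 -1.39 ± 0.22, adjusted p = 5.58e-05) and 2.02 in MS023 (-1.65 ± 0.22, adjusted p = 2.07e-05), and ADM, which codes for adrenomedullin, rose in both (1.14 ± 0.03 and 0.59 ± 0.03). PDK1 fell in GSK591 (-1.53 ± 0.06) and less in MS023 (-0.21 ± 0.05), and DDIT4 fell in both (-0.67 ± 0.04 and -0.80 ± 0.04). PFKFB4 rose in GSK591 (0.59 ± 0.10) and was not called in MS023. MXI1 rose in MS023 (0.22 ± 0.05) and fell in GSK591 (-0.55 ± 0.05).

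Of 8 tested genes of oxygen sensing, 2 rose and 4 fell in GSK591 (median -0.11), and 1 rose and 3 fell in MS023 (median -0.02). EPAS1, which codes for HIF-2 alpha, rose from 315 to 421 CPM in GSK591 (log2 0.42 ± 0.03, adjusted p = 5.14e-08) and fell to 209 CPM in MS023 (-0.59 ± 0.03, adjusted p = 2.62e-09). HIF1A fell from 600 to 426 CPM in GSK591 (-0.49 ± 0.03, adjusted p = 7.11e-09), as did its partner ARNT (-0.29 ± 0.04). P4HTM, a transmembrane relative of the prolyl 4-hydroxylases, rose slightly in GSK591 (0.17 ± 0.05). In MS023 the HIF prolyl hydroxylase gene EGLN1 rose (0.58 ± 0.04) and EGLN3 fell (-0.61 ± 0.04). HIF1A fell in MS023 too (-0.13 ± 0.03), where ARNT and P4HTM were not called. EGLN1 fell in GSK591 (-0.26 ± 0.04), where EGLN3 was not called.

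The collagen chains that these enzymes modify went both ways. Of 18 tested, 7 rose and 7 fell in GSK591 (median -0.00), and 6 rose and 9 fell in MS023 (median -0.20). COL1A1 fell in GSK591, from 11.7 to 7.18 CPM (log2 -0.71 ± 0.08, adjusted p = 3.37e-06), and rose in MS023 to 25.1 CPM (1.10 ± 0.08, adjusted p = 2.14e-08). COL11A2 rose in both (1.34 ± 0.16 and 1.91 ± 0.15). COL27A1 rose in GSK591 (0.87 ± 0.06) and in MS023 (0.57 ± 0.06), and COL3A1 fell in GSK591 (-1.02 ± 0.12) and was not called in MS023. COL4A6 (-1.53 ± 0.04) and COL11A1 (-1.43 ± 0.07) fell in MS023, and less in GSK591 (-0.20 ± 0.04 and -0.36 ± 0.07).

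**Figure D4:**
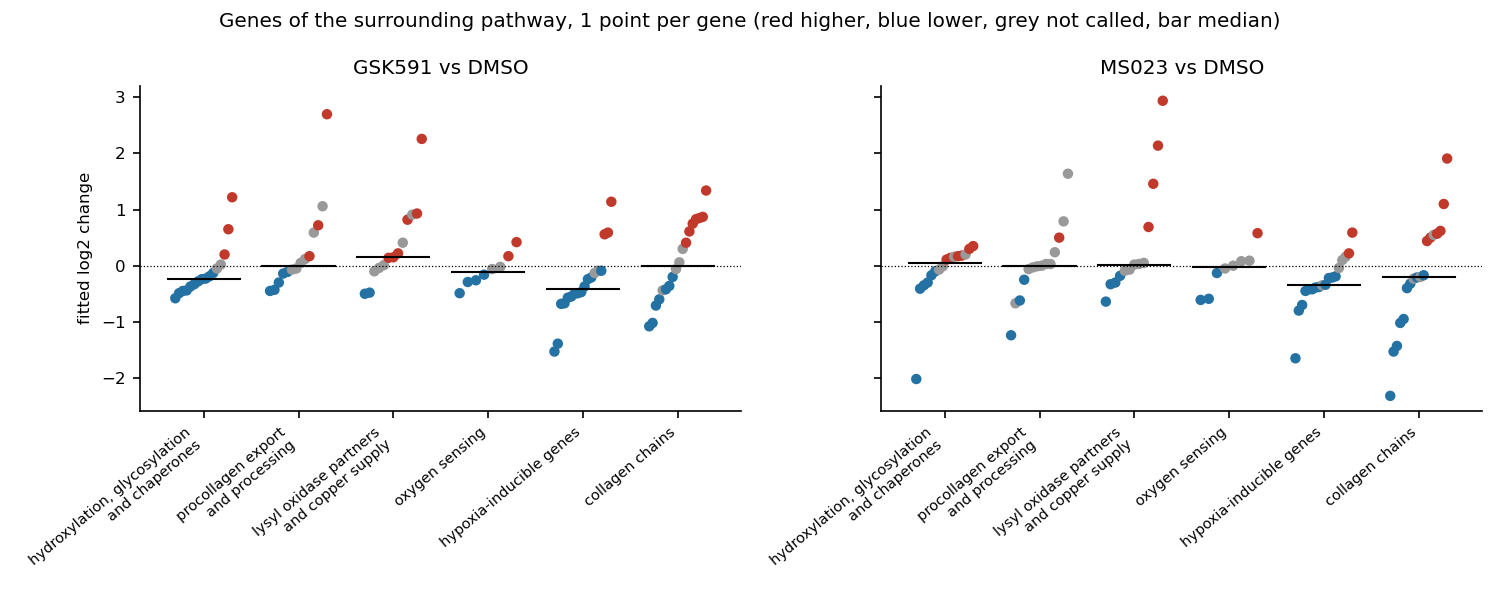
Fitted log2 change against DMSO of each gene in the 6 lists around the collagen-modifying enzymes, 1 point per gene, red where called higher, blue where called lower, grey where not called, with the list's median as a bar. The median of the hypoxia-inducible genes is -0.42 in GSK591 and -0.34 in MS023, and every list has points on both sides of 0.

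The genes most like each enzyme were sought by Pearson's r of log2 CPM over the 9 libraries, among 13820 genes with a symbol and at least 1 CPM on average. The 9 points share 3 group means, and r is given as a description. LOXL2 was closest to AFAP1, an actin-binding adaptor (r = 0.998, 113, 140 and 62.6 CPM in DMSO, GSK591 and MS023), and to RP11-554I8.2 (r = 0.998). PLOD1 was closest to SLC23A2, an ascorbate transporter (r = 0.996, 177, 94.6 and 156 CPM), and ANKH (0.995). PLOD2 was closest to SLC38A2, an amino acid transporter (0.996), and NAPEPLD (0.996). P4HA1 had NUP62CL (0.997) and ICMT (0.996). LOXL4 had RELB, an NF-kB subunit (0.994), and ALDH1A3 (0.994), and LOX had TSPAN2 (0.989) and CTD-2139B15.5 (0.987). For P4HA2 they were ACTR8 (0.989) and GLRX3 (0.979), for PLOD3 FOXL1 (0.985) and RARB (0.983), for LOXL1 TSPYL1 (0.982) and BCMO1 (0.981), and for LOXL3 FAM86FP (0.959) and FAM86DP (0.937).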

How the data were processed

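RNA from 9 A549 libraries, 3 per group, rRNA-depleted and sequenced from both ends per the labels' protocols, was analysed from a table of read counts per gene that the authors deposited without normalization, and from 9 tables in the layout of Cufflinks in which the authors deposited FPKM. Cutadapt, STAR, featureCounts, DESeq2 and the build hg19 are named, per the submitters' processing notes, while the sources used here give no version, annotation, strand setting or filter. Groups and replicate numbers came from the labels. Symbols and hg19 positions came from the FPKM tables, the latter shifted to count from 1, and promoter windows from RefSeq (GRCh38.p14).

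The count analysis used edgeR 4.0.16 (R 4.3.3), with filterByExpr as the filter on genes (minimum count 10 and total 15) and TMM scaling. All 9 libraries entered 1 quasi-likelihood model, in which group was the sole factor. Standard errors are the size of the log2 change over the root of F. Tests are two-sided. The scripts were tested on simulated data. FPKM served for levels between genes, for shares within a family and, as log2(FPKM + 1) or log2(FPKM + 0.1) in limma 3.58.1, for alternatives. Shares were compared by exact permutation in Python 3.11.15 with scipy 1.17.1.

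The 10 genes, the lists and the tests were chosen with earlier results of these data known, so they are not independent of them. Named besides the 10 genes are, per list and comparison with DMSO, up to 2 genes each way with the largest called change and a mean of at least 1 CPM, and per enzyme the 2 genes with the highest correlation. Genes that the files list under an older symbol, such as LEPRE1 for P3H1, are given by the current one. Alternatives were RLE or total-count scaling, no filter or 1 CPM in 3 libraries, DESeq2 1.42.0, a replicate block, the 6 libraries alone, each library left out, a threshold of 0.01 on the adjusted p, a minimum log2 change of 0.5 in the test, CPM in place of FPKM for the shares, and FPKM for all genes or for those at 1 FPKM or more in 3 libraries. Leaving out DMSO replicate 1 and GSK591 replicate 3 together was added after seeing the data. Reads are not independent molecules, and precision is limited by 3 libraries per group and by the few counts of LOX, LOXL1 and LOXL3.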

Additional observations from a re-analysis of the deposited data

Results flagged for a closer look

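LOX, LOXL2 and PLOD2 were called in opposite directions under the 2 inhibitors, and they also differed in MS023 against GSK591 (edgeR). The flag required all of these calls, so the difference between the inhibitors is no separate support for the opposite directions. The share of all genes called in opposite directions is not given here, so the number of these enzymes cannot be set beside it. For LOXL2 the log2 difference between the inhibitors was -2.23, for LOX -1.27 and for PLOD2 -0.89, each lower in MS023. In CPM, 3 of 3 libraries of each treated group lay on its own side of the controls. In FPKM, LOX in GSK591 overlapped DMSO. The adjusted p of the difference stayed at or under 0.00809 for LOX, 3.93e-07 for LOXL2 and 3.95e-05 for PLOD2 over the alternatives run. Some calls against DMSO ended in the alternatives. In the test against a log2 change of 0.5, those of LOX (adjusted p = 0.535 in GSK591 and 0.23 in MS023) and PLOD2 (1 and 0.0633) ended. That test asks whether a change's size exceeds 0.5, and the fitted changes were 0.55 and -0.71 for LOX and 0.28 and -0.61 for PLOD2. The calls of LOX also ended in FPKM without a filter (limma adjusted p = 0.297 and 0.0706), a scale that understates the changes of low genes.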

How the results depend on the processing

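Among the alternative values for single enzymes, 492 kept their direction and their side of the threshold, 44 lost and 1 gained a call, and 12 turned their sign. Left out in turn, single libraries gave 5 to 6 enzymes higher and 2 to 3 lower in GSK591, 1 higher and 6 to 7 lower in MS023, and 2 higher and 6 to 7 lower between the inhibitors. Against a minimum log2 change of 0.5, 3 enzymes were higher in GSK591 (LOXL1, LOXL2 and LOXL4), 1 was lower in MS023 (LOXL2), and 0 were higher and 4 lower in MS023 against GSK591. The shares of all genes under these alternatives are not given. With a filter of 1 CPM LOXL1 was not tested, which left 0 higher in MS023. In FPKM, with 7 enzymes past the filter, 3 were higher and 2 lower in GSK591, and 0 higher and 5 lower in MS023, at either pseudocount. Without the filter, run with a pseudocount of 1, 3 were higher and 2 lower in GSK591, and 0 higher and 4 lower in MS023.

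Signs turned for P4HA2 in GSK591 without DMSO replicate 3 (-0.02, in a range up to 0.08 without single libraries) and in FPKM (-0.03 with a pseudocount of 1, with or without the filter, and -0.04 with 0.1), and for PLOD3 in GSK591 in FPKM (0.06, and 0.07 with a pseudocount of 0.1). LOXL4 in MS023 turned without MS023 replicate 3 (-0.01, in a range up to 0.19). LOXL1 between the inhibitors turned without MS023 replicate 1 (0.00, in a range from -0.25) and in unfiltered FPKM (0.12), and LOXL3 in unfiltered FPKM against DMSO (0.03) and GSK591 (0.02) in MS023. The cause was not tested. Leaving out DMSO replicate 1 and GSK591 replicate 3 together ended the calls of LOXL3 (adjusted p = 0.318) and PLOD3 (0.413) in GSK591 and of LOXL3 between the inhibitors (0.149).

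In CPM, which is not per length, the share of PLOD2 differed by -15.4 percentage points between the inhibitors, against -17.6 in FPKM. Without single libraries the differences of the LOXL2 share ranged from -1.95 to -1.05 in GSK591, -12.5 to -10.7 in MS023 and -11.2 to -9.32 between them, those of the PLOD2 share from 8.54 to 10.8, -9.08 to -6.86 and -18.7 to -17.0, and those of the log2 ratio of P4HA2 to P4HA1 from 1.02 to 1.10, 0.289 to 0.328 and -0.794 to -0.708. Total-count scaling moved the median of all genes by at most 0.06 (log2). Same-numbered replicates of different groups correlated in their deviations with r of -0.43 to 0.26 over 9 pairs. Replicates with different numbers were not compared, so these values cannot show whether the numbers mark pairs. The labels do not say that they do, and the main model therefore had no replicate block. With the replicate block, the call of LOXL3 in GSK591 was lost (log2 0.35, adjusted p = 0.0625), and none of the other calls of the 10 enzymes changed.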

Other observations

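Values of MS023 against GSK591 for the lists around the enzymes are given here, where 33.6% of all tested genes were higher in MS023 and 31.7% lower (edgeR, median log2 0.00). Of 16 other genes for collagen modification and folding, 8 were higher and 5 lower (median 0.11). P3H1 (0.72 ± 0.05) and FKBP10 (0.63 ± 0.03) were higher, and P4HA3 (-1.44 ± 0.05) and SERPINH1 (-0.35 ± 0.06) lower. Of 14 genes for export and processing, 5 were higher and 3 lower (median 0.06). FURIN (0.94 ± 0.06) and PCOLCE (0.31 ± 0.13, adjusted p = 0.0499) were higher, and PCOLCE2 (-1.41 ± 0.07) and BMP1 (-1.34 ± 0.04) lower. Of 13 lysyl oxidase partners and copper supply genes, 6 were higher and 5 lower (median 0.02). TNXB (1.32 ± 0.09) and THBS1 (0.48 ± 0.04) were higher, and FBN1 (-2.59 ± 0.09) and EFEMP2 (-0.88 ± 0.17) lower.

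Of 8 genes of oxygen sensing, 4 were higher and 2 lower (median 0.14). EGLN1 (0.83 ± 0.04) and HIF1A (0.36 ± 0.03) were higher, and EPAS1 (-1.01 ± 0.03) and EGLN3 (-0.59 ± 0.04) lower. Of 18 other hypoxia-inducible genes, 6 were higher and 8 lower (median -0.11). PDK1 (1.33 ± 0.06) and MXI1 (0.77 ± 0.05) were higher, and ADM (-0.55 ± 0.03) and PFKFB4 (-0.43 ± 0.10) lower. Of 18 collagen chains, 7 were higher and 10 lower (median -0.40). COL1A1 (1.81 ± 0.08) and COL4A4 (0.92 ± 0.04) were higher, and COL5A1 (-1.43 ± 0.04) and COL4A6 (-1.32 ± 0.04) lower. The named genes are the 2 in each list with the largest called change each way and a mean of at least 1 CPM, the rule of the comparisons with DMSO, applied here after the values were seen.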
